A study of Rattus norvegicus with 24 samples.

Results

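Interleukins and their receptors were examined in the peripheral blood of rats as 78 genes of a two-color microarray, chosen by name alone: every non-control probe whose gene symbol begins with Il followed by a digit, with the brightest Cy3 probe taken for each gene. These 78 genes had 90 probes, out of 30367 probes on the array, and comprised 36 ligands, 36 receptor chains and 6 antagonists or decoys. The study asked whether oat beta-glucan in the diet altered gene expression in blood of rats given bacterial lipopolysaccharide (LPS), an intravenous model of enteritis. Male Sprague-Dawley rats, 8 weeks old at the start, were fed a semi-synthetic diet for 6 weeks either without supplement (G0) or with oat beta-glucan of high molecular weight (G1) or low molecular weight (G2). On each diet, rats received saline (C-G0, C-G1, C-G2) or E. coli LPS at 10 mg per kg into the tail vein (LPS-G0, LPS-G1, LPS-G2). Injections were repeated, blood was taken by cardiac puncture after fasting at the end of feeding, and the time between the last injection and sampling is not given in the sources used here. Each of the 6 groups had 4 arrays, each array hybridized with RNA of 1 rat in Cy3 and a common reference in Cy5. Of the 4 LPS-G0 arrays, replicates 3 and 4 carry a label field that names them as not induced, against their titles.

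Interleukins are secreted signals by which leukocytes and tissue cells instruct each other. A ligand binds a receptor chain that is often shared: Il2rg, the common gamma chain, serves the receptors of IL-2, IL-4, IL-7 and others, and Il6st serves those of IL-6 and IL-11. The IL-1 family is held in check by soluble or decoy proteins, among them the receptor antagonist Il1rn and the decoy receptor Il1r2. LPS acts through Toll-like receptor 4 on monocytes and neutrophils, where Il1b and Il6 are classical early targets.

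All values below are log2 ratios of Cy3 over Cy5, that is, of a rat's RNA over the common reference, and a difference is the difference between 2 group means of these ratios. The sample labels place the rat RNA in Cy3, whereas the methods of the study name Cy5, and if the methods held, every sign below would turn. Which genes count as measured in the rat RNA would then change too, since detection was read from Cy3: 27 genes rather than 11 were above background on all 24 arrays in Cy5. The size of a fitted difference does not depend on the dye's direction. For 7074 probes that every array measured above background with both dyes, the within-group SD of the log2 signal had a median of 0.383 for Cy3 against 0.257 for Cy5 and was larger for Cy3 in 95.3% of them, and the Cy3 assignment of the labels was kept. The number of probes that an array measured well above background in Cy3 ran from 7786 to 15385. The arrays lay on 3 slides of 8, with all 6 groups on each slide, but diets were spread unevenly over the slides. Replicates 1 and 2 of both G0 groups shared slide 1, and replicates 2 and 3 of both G1 groups shared slide 2. Replicates 3 and 4 of both G2 groups shared slide 3. The main fit held no term for slide, so a difference between diets is partly one between slides. C-G0 replicate 1 and C-G1 replicate 2 stood apart: they received the lowest weights of the 24 arrays (0.181 and 0.225, the next being 0.491) when arrays were weighted by their fit. Values without them, chosen for marker lists after seeing the data, are given beside some of the results they move. Since the samples were whole blood, fewer cells of a type and less RNA per cell cannot be told apart. The labels call the 4 arrays of a group biological replicates.

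A gene was testable where a whole group, that is all of its 4 arrays, measured it well above background in Cy3. Of the 78 genes 20 were testable, 31 were above background on some arrays only and 27 on none. Of the 36 receptor chains, 13 were testable (36.1%), against 5 of 36 ligands (13.9%) and 2 of 6 antagonists or decoys (33.3%). Over all probes of the array, 35.3% were testable, against 25.6% of the interleukin genes, and these shares were not tested against each other. On all 24 arrays, 7 receptor chains and 2 ligands were above background in Cy3, and 16 and 9 in Cy5. The testable ligands were Il1b, Il11, Il13, Il16 and Il18. The antagonist Il1rn and the decoy Il1r2 were both measured on all 24 arrays. The testable receptor chains were Il2ra, Il2rb and Il2rg of the IL-2 receptor, Il3ra, Il4r, Il6r, Il6st, Il7r, Il10rb, Il17ra, Il18r1, Il21r and Il27ra. Of these 20 genes, 11 were well above background on all 24 arrays, and all 20 were so in the reference channel on all 24. No probe of any of the 78 genes was saturated in Cy3.

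**Figure D1:**
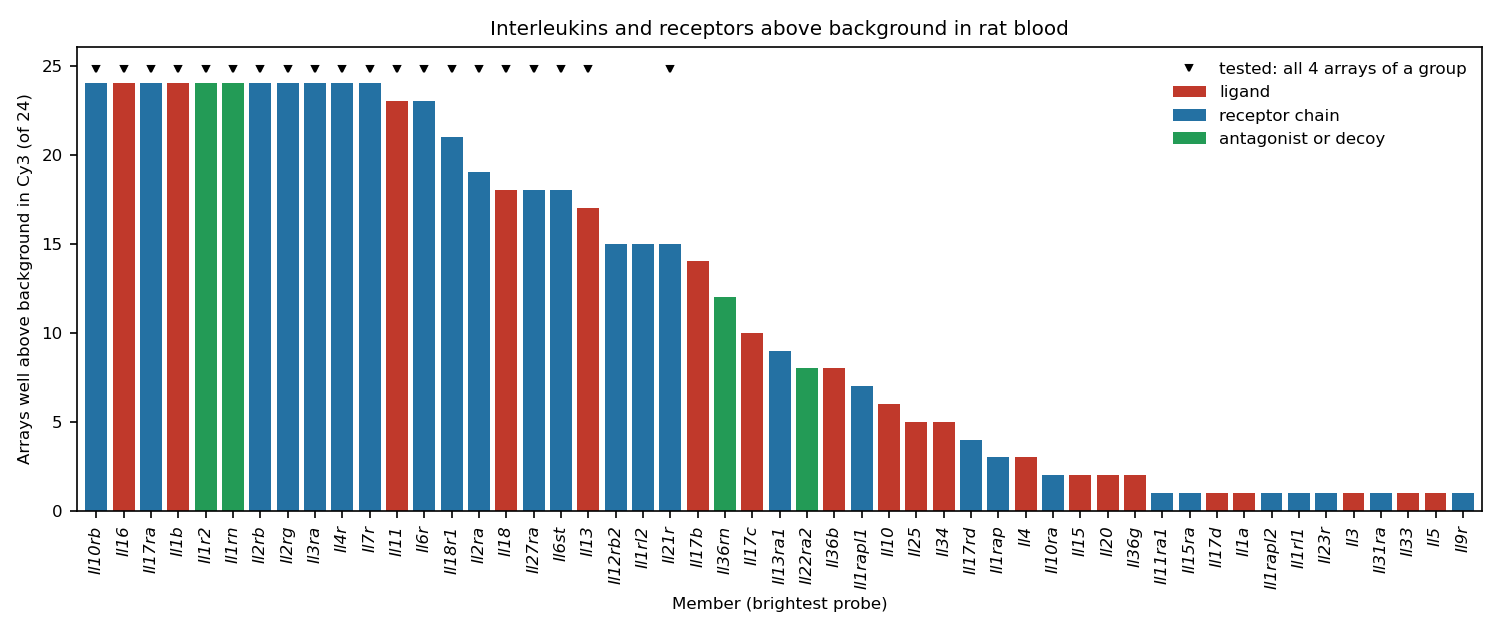
Number of arrays, out of 24, on which the brightest probe of each gene was well above background in Cy3, for the 51 genes above background on at least 1 array, coloured by role. Triangles mark the 20 genes that were testable because all 4 arrays of at least 1 group were above background, and 11 genes reach all 24 arrays.

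Il6 was not well above background on any of the 24 arrays, in the rat RNA or in the reference. The same held in Cy3 for Il2, Il7, Il9, Il12a, Il12b, Il17a, Il17f, Il19, Il1f10, Il21, Il22, Il23a, Il24, Il27 and Il36a among ligands. It also held for the receptor chains Il1r1, Il5ra, Il12rb1, Il17rb, Il17re, Il18rap, Il20ra, Il20rb and Il22ra1, and for Il13ra2 and Il18bp, which bind IL-13 and IL-18 without signalling. Of these 27 genes, 21 were well above background in the reference on at least 1 array, but only Il23a and Il17re on 12 or more. The IL-10 gene, an anti-inflammatory cytokine, was above background on 6 arrays, no more than 2 in any group.

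The 31 genes seen on some arrays were led by Il12rb2 and Il1rl2 on 15 arrays, Il17b on 14, Il36rn on 12 and Il17c on 10. Il13ra1 was seen on 9 arrays, Il22ra2 and Il36b on 8, Il1rapl1 on 7, Il10 on 6, Il25 and Il34 on 5, Il17rd on 4, and Il1rap and Il4 on 3. Il10ra, Il15, Il20 and Il36g were seen on 2 arrays. The remaining 12, each on 1 array, were Il1a, Il3, Il5, Il17d, Il33, Il11ra1, Il15ra, Il1rapl2, Il1rl1, Il23r, Il31ra and Il9r. Their calls spread wider over the slides than over the groups. Of 248 gene-by-array values on each slide, 16.1% were above background on slide 1, 5.65% on slide 2 and 36.3% on slide 3, whereas the 6 groups spanned 16.9% to 22.6%. The number of all 78 genes above background per array was 20 to 27 on slide 1, 12 to 22 on slide 2 and 24 to 36 on slide 3, while the number of all probes above background had medians of 11202, 10561.5 and 13532. No level is drawn from these genes except Il34, described below.

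Several of the genes lie side by side in the rat genome, and detection differed between neighbours. Probe positions come from the array's design file, which uses the rn4 assembly, and whether a probe lies in an exon or a UTR was not assigned, since an annotation of that assembly was not used here. On chromosome 9, from 39316654 to 39677475, lie Il1r2, Il1r1, Il1rl2, Il1rl1, Il18r1 and Il18rap, of which Il1r2 and Il18r1 were testable. On chromosome 3, from 2437664 to 2613189, lie Il36g, Il36a, Il36b, Il36rn, Il1f10 and Il1rn, of which Il1rn was testable. Il4, Il13 and Il5 of the type 2 cytokine cluster lie on chromosome 10 from 39074590 to 39180657, and Il13 was testable. Il4r and Il21r, neighbours on chromosome 1, were both testable. The 4 genes Il24, Il20, Il19 and Il10 on chromosome 13 were not.

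The 20 testable genes varied from rat to rat within every group. The whole range over 24 arrays was widest for Il18, from -1.81 to 1.16, which is 7.86-fold, and narrowest for Il2rg, at 1.76-fold. The lowest Il18 value came from C-G0 replicate 1, where Il18 was not well above background, so its range has no firm lower end. The widest gap between 2 group means was 1.21 for Il13, between C-G1 and LPS-G0, and the narrowest 0.31 for Il2rg. Il13 was above background on only 2 of the 4 C-G1 arrays and 3 of the 4 LPS-G0 arrays. Within groups the pooled SD ran from 0.188 for Il2rg to 0.744 for Il21r. Il21r was above background on 15 of 24 arrays, and its lowest value, in LPS-G0 replicate 3, was not among them. No gene was called in any of the 8 comparisons at an adjusted p under 0.05 (limma, Benjamini-Hochberg over 10708 probes), and the counts at an unadjusted p are given beside the share of all probes that passed it. The median half-width of the 95% interval of a gene's difference between 2 groups was about 0.51, so that differences below about that size could not be told from 0 for the typical gene.

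LPS against saline on the control diet (LPS-G0 vs. C-G0) gave 0 called genes, with 0% of all probes called. At an unadjusted p under 0.05 there were 2 of 20, against 11.3% of all probes: Il2rb, the beta chain of the IL-2 and IL-15 receptors, was higher and Il7r, the IL-7 receptor alpha chain of lymphocytes, lower. The 20 genes had a median difference of -0.08, against 0.02 over all probes, and 8 of them were above 0. For Il2rb the C-G0 arrays read -1.09, -0.10, -0.37 and -0.07, and the LPS-G0 arrays 0.70, -0.12, -0.19 and 0.23. The groups overlapped, and the extreme values were C-G0 replicate 1 and LPS-G0 replicate 1. The Il2rb difference was 0.57 (SE 0.232, adjusted p = 0.421, exact permutation p = 0.171), and within the 3 slides it ran from 0.18 to 0.89. For Il7r, whose probe lies at chr2:59105683-59105742, the C-G0 arrays read 0.25, 0.38, 0.87 and 0.13 and the LPS-G0 arrays -0.90, 0.26, 0.13 and -0.80. Both groups held values near 0.2, with LPS-G0 replicates 1 and 4 far below. The Il7r difference was -0.74 (SE 0.305, adjusted p = 0.425, exact permutation p = 0.143). By its second probe, Il7r differed by -1.13 (SE 0.463). Without LPS-G0 replicate 1 neither gene, and 0 of the 20, passed the unadjusted p. Without C-G0 replicate 1 the Il2rb difference was 0.34 (unadjusted p = 0.133) and the count was 4. The count was 1 without C-G0 replicate 3, without LPS-G0 replicate 4 or without both LPS-G0 arrays of conflicting labels. With arrays weighted by their fit, Il2ra (1.03, adjusted p = 0.0212) and Il17ra (-0.54, adjusted p = 0.0464) were called, together with 917 probes of all genes.

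Il1b, the ligand that would be looked for first after LPS, was not higher in LPS-G0 than in C-G0. The C-G0 arrays read -0.48, -0.76, -0.03 and 0.04 and the LPS-G0 arrays -0.73, -0.83, -0.30 and -0.56, and the difference was -0.30 (95% interval -1.01 to 0.41, adjusted p = 0.74). Its antagonist Il1rn differed by -0.26 (95% interval -0.72 to 0.22). The decoy receptor Il1r2 differed by -0.25 (95% interval -0.96 to 0.45). Of 6 tested neutrophil markers 1 was higher in LPS-G0 at the unadjusted p (11.3% of all probes), with a median of -0.54.

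Markers of cytotoxic T and NK cells differed beside Il2rb in the same comparison. Of 8 such markers 7 were tested, and none was called. All 7 had an unadjusted p under 0.05, against 11.3% of all probes, and were higher in LPS-G0, with a median difference of 0.94. The mean log2 ratio of the list ran from -1.63 to -0.03 in C-G0 and from -0.02 to 0.66 in LPS-G0. Without C-G0 replicate 1 the difference between the list means was 0.66 in place of 0.99, and C-G0 ran from -0.46 to -0.03. The remaining marker, Ncr1, was above background on 11 arrays. Of 8 tested T cell markers 1 was lower and none higher, with a median of -0.08. The T cell list mean differed by -0.12, and by -0.31 without C-G0 replicate 1. The part of these cells in the Il2rb and Il7r differences was not tested.

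On the G1 diet (LPS-G1 vs. C-G1), 0 of 20 genes were called (0.00934% of all probes) and 1 passed the unadjusted p (2.81% of all probes). This was Il3ra, the IL-3 receptor alpha chain, whose probe lies at chr12:16828455-16828514. The C-G1 arrays read 0.06, -0.51, -0.52 and 0.04 and the LPS-G1 arrays 0.34, 0.25, -0.04 and 0.19. The groups overlapped, and the difference was 0.42 (SE 0.192, adjusted p = 0.95, exact permutation p = 0.0857). A second Il3ra probe gave 0.22 (SE 0.391). The count fell to 0 without C-G1 replicate 2 or 3 or LPS-G1 replicate 1, 2 or 4, and was 2 without C-G0 replicate 1. On the G2 diet (LPS-G2 vs. C-G2), 0 of 20 were called (0% of all probes) and 0 passed the unadjusted p (1.09% of all probes), with 1 passing it without C-G2 replicate 2. The largest differences there were 0.44 and -0.29.

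Over the 3 diets together, LPS against saline gave 0 of 20 called genes (0.0187% of all probes) and 0 at the unadjusted p (9.61% of all probes). The differences lay between -0.20 and 0.31 with a median of -0.03, and the median half-width of the 95% interval was 0.29. The count at the unadjusted p was 5 without C-G0 replicate 1 and 1 without C-G2 replicate 3. The LPS difference on G2 less that on the control diet was 1.08 for Il7r (SE 0.431, unadjusted p = 0.0203, adjusted p = 0.832), and no gene passed the adjusted threshold for either diet.

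**Figure D2:**
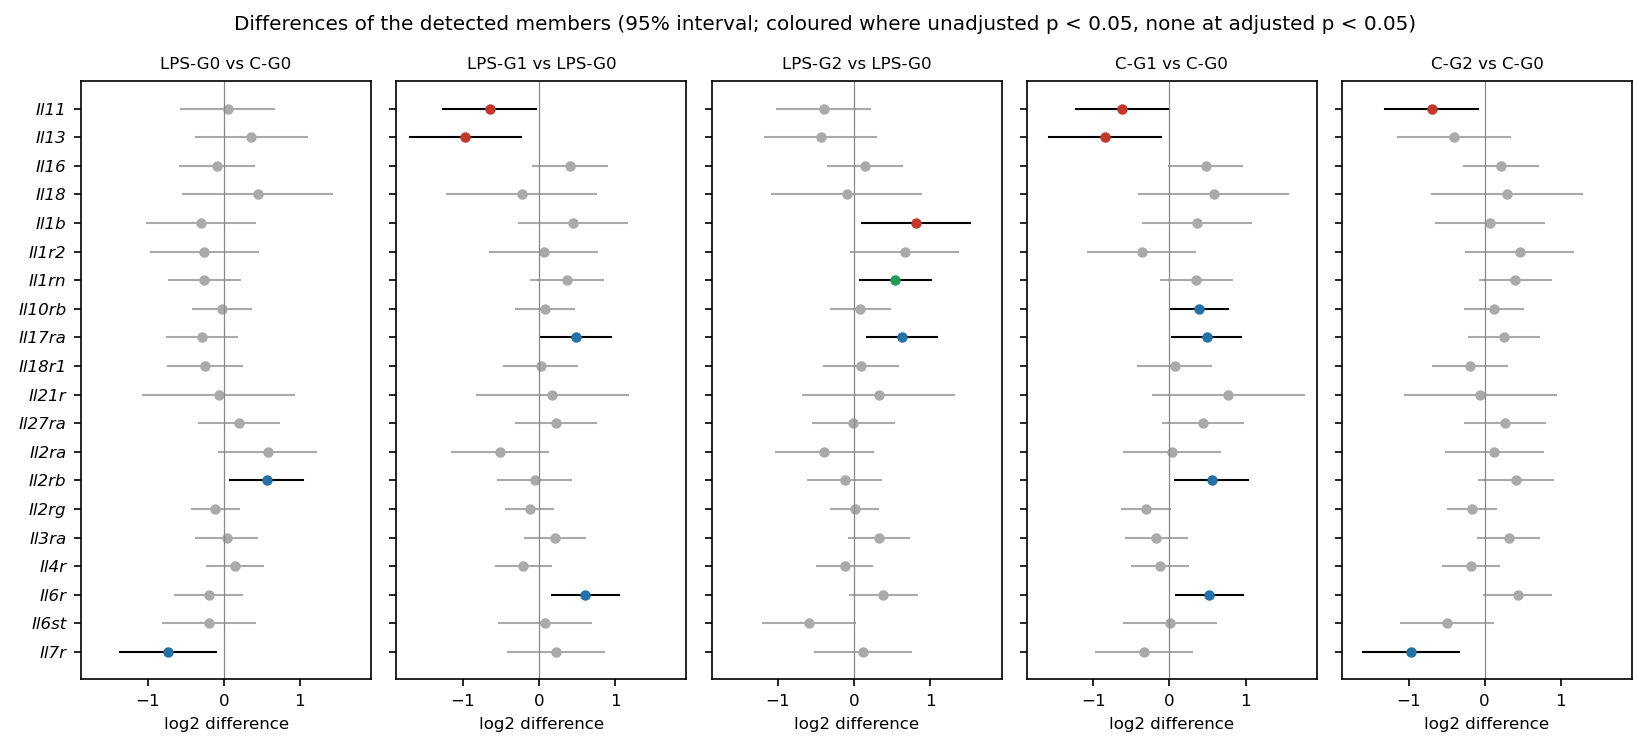
Difference of each of the 20 testable genes in 5 comparisons, on the log2 scale, as a point with its 95% interval from limma (n = 4 arrays a group), ordered as ligands, antagonists or decoys and receptor chains. Coloured points have an unadjusted p under 0.05, namely 2, 4, 3, 6 and 2 genes from left to right, and none had an adjusted p under 0.05.

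The G1 diet gave the most differences at the unadjusted p, both in rats given LPS and in rats given saline, and Il6r, Il17ra, Il11 and Il13 appeared in both comparisons. Among rats given LPS (LPS-G1 vs. LPS-G0), 0 of the 20 were called (0.028% of all probes) and 4 passed the unadjusted p (23.7% of all probes), of which 2 receptor chains were higher and 2 ligands lower. In C-G1 vs. C-G0, 0 were called (0.028% of all probes) and 6 passed (27.9% of all probes), 4 receptor chains higher and 2 ligands lower. Both shares, 20% and 30%, are close to the share of all probes. With arrays weighted by their fit, Il6r, Il13, Il17ra and Il11 were called among rats given LPS, together with 2955 probes of all genes, and Il13 alone was called with the replicate number as a block (adjusted p = 0.0358) or with 16 arrays (adjusted p = 0.0289). The median difference of the 20 genes was 0.08 in the first comparison, against 0.07 over all probes, and 0.21 in the second, against 0.02. Il18 and Il21r were testable only through C-G1, the group where their means were highest, so the second median is partly set by the detection rule.

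Il6r, the ligand-binding chain of the IL-6 receptor, is probed at chr2:182078323-182078382. It read -0.74, -0.50, -0.42 and -0.47 in LPS-G0 and -0.01, -0.05, -0.04 and 0.41 in LPS-G1. Every LPS-G1 array lay above every LPS-G0 array. In this comparison the groups did not overlap, in either direction, for 4 of the 20 genes and 21.3% of all probes tested. The Il6r difference was 0.61 (SE 0.213, adjusted p = 0.115, exact permutation p = 0.0286, the smallest that 4 against 4 arrays can give) and ran from 0.38 to 0.88 within slides. In rats given saline, Il6r read -1.06, -0.17, -0.04 and -0.06 in C-G0 and 0.19, 0.39, -0.00 and 0.17 in C-G1, again without overlap, the C-G0 replicate 1 value coming from the one array where Il6r was not well above background. That difference was 0.52 (SE 0.213, adjusted p = 0.142, exact permutation p = 0.0286). Between C-G1 and C-G0, 1 of the 20 genes and 7.04% of all probes tested did not overlap.

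Il17ra, the receptor chain shared by IL-17 cytokines, is probed at chr4:156862284-156862343. It read -0.80, -0.46, -0.69 and -0.75 in LPS-G0 and 0.03, -0.36, -0.26 and -0.15 in LPS-G1. No values overlapped, and the difference was 0.49 (SE 0.221, adjusted p = 0.181, exact permutation p = 0.0286). In C-G0 it read -1.25, -0.06, -0.04 and -0.20 and in C-G1 -0.07, 0.33, 0.09 and 0.07. The C-G0 mean was lowered by replicate 1, and the groups overlapped by a small margin, with a difference of 0.49 (SE 0.221, adjusted p = 0.161, exact permutation p = 0.0857).

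The ligands Il13 and Il11 lay the other way. Il13, a type 2 cytokine probed at chr10:39093534-39093593, was dim, with Cy3 signals between 18.4 and 186, and was above background on 3 arrays of LPS-G0, 2 of LPS-G1, 3 of C-G0 and 2 of C-G1. It read 0.56, 0.21, -0.06 and 0.50 in LPS-G0 and -0.28, -0.65, -1.08 and -0.66 in LPS-G1. LPS-G0 replicate 3 and LPS-G1 replicates 2 and 3 were not well above background, so their values have no firm level, and the fitted difference of -0.97 (SE 0.353, adjusted p = 0.122) is given as a description. It was -0.32 with another background correction (normexp), and within slides it ran from -1.16 to -0.66. On slide 2 the difference rests only on the arrays named above as not well above background. Il13 was above background on 8 arrays of slide 1, 1 of slide 2 and 8 of slide 3. Slide 2 held more arrays of the G1 groups than of the G0 groups. In saline rats Il13 read 0.44, -0.32, 0.04 and -0.39 in C-G0 and -0.48, -1.64, -1.18 and -0.32 in C-G1. The groups overlapped, with the lowest values on arrays where it was not well above background, and the fitted difference of -0.85 (SE 0.353, adjusted p = 0.146) was -0.15 with that correction. Il11, which signals through Il6st and is probed at chr1:67788418-67788477, read 0.38, 0.67, 0.04 and 0.54 in LPS-G0 and 0.27, -0.48, -0.42 and -0.32 in LPS-G1. Here LPS-G1 replicate 1 lay inside the range of LPS-G0. The difference was -0.65 (SE 0.294, adjusted p = 0.184, exact permutation p = 0.0571), and within slides it ran from -0.86 to -0.25. In saline rats Il11 read -0.25, -0.61, -0.17 and -0.01 in C-G1, and the difference from C-G0 was -0.62 (SE 0.294, adjusted p = 0.175, exact permutation p = 0.229).

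In saline rats only, at the unadjusted p, Il2rb and Il10rb, a shared chain of the receptors of IL-10 and related cytokines, joined the list, though the G1 differences with and without LPS were not tested against each other. Il2rb read 0.38, 0.09, 0.26 and -0.14 in C-G1, a difference of 0.56 from C-G0 (SE 0.232, adjusted p = 0.145). Il10rb, probed at chr11:31397013-31397072, read -0.96, -0.18, -0.32 and 0.10 in C-G0 and -0.01, 0.04, 0.07 and 0.11 in C-G1, so that the 4 C-G1 arrays lay close together. The difference was 0.39 (SE 0.185, adjusted p = 0.171). All of the saline comparison leaned on C-G0 replicate 1: without it 0 of the 20 genes passed the unadjusted p. The differences without it were 0.28 for Il6r, 0.20 for Il17ra, 0.18 for Il10rb, 0.33 for Il2rb, -0.31 for Il11 and -0.68 for Il13. The count was 10 without C-G0 replicate 4, 2 without C-G1 replicate 2 and 3 without C-G1 replicate 3. On slide 3 alone, the differences of Il11 (0.14), Il13 (0.08) and Il2rb (-0.06) had the opposite sign. Among rats given LPS the count dropped to 2 when replicate 4 of LPS-G1, or replicate 1 or 4 of LPS-G0, was left out, and also to 2 without both LPS-G0 arrays of conflicting labels.

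Blood cell markers were counted beside these genes at the unadjusted p, and none was called. Of all probes, 27.9% passed that p in C-G1 vs. C-G0 and 23.7% in LPS-G1 vs. LPS-G0. Of 7 tested erythroid markers 3 were lower in C-G1 than in C-G0 and none higher, with a median of -0.64. In LPS-G1, 2 were lower than in LPS-G0, with a median of -0.20. The mean log2 ratio of the erythroid list ran from -0.20 to 0.32 in C-G0, from -1.07 to -0.19 in C-G1, from 0.08 to 0.28 in LPS-G0 and from -0.42 to -0.01 in LPS-G1. The lowest C-G1 value was replicate 2, and the C-G1 minus C-G0 difference of the erythroid list mean went from -0.59 to -0.40 without that array and to -0.33 without C-G0 replicate 1 as well. Of 6 tested monocyte markers 1 was higher in each comparison. Beside Il2rb, 3 of 7 cytotoxic T and NK cell markers were higher in C-G1 than in C-G0, with a median of 0.62. The difference between these list means was 0.61, and 0.28 without C-G0 replicate 1. Both tested basophil and mast cell markers were higher, while Fcer1a, Ms4a2 and Gata2 of that list were dim on all arrays. The difference of that list mean was 0.73, and 0.39 without C-G0 replicate 1 and C-G1 replicate 2. Monocyte markers differed by 0.15 as a list mean, and by -0.04 without C-G0 replicate 1. The eosinophil gene Prg2, the only tested marker of its list, differed by -0.996 in LPS-G1 vs. LPS-G0, at an unadjusted p under 0.05. Their part in the differences was not tested.

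**Figure D3:**
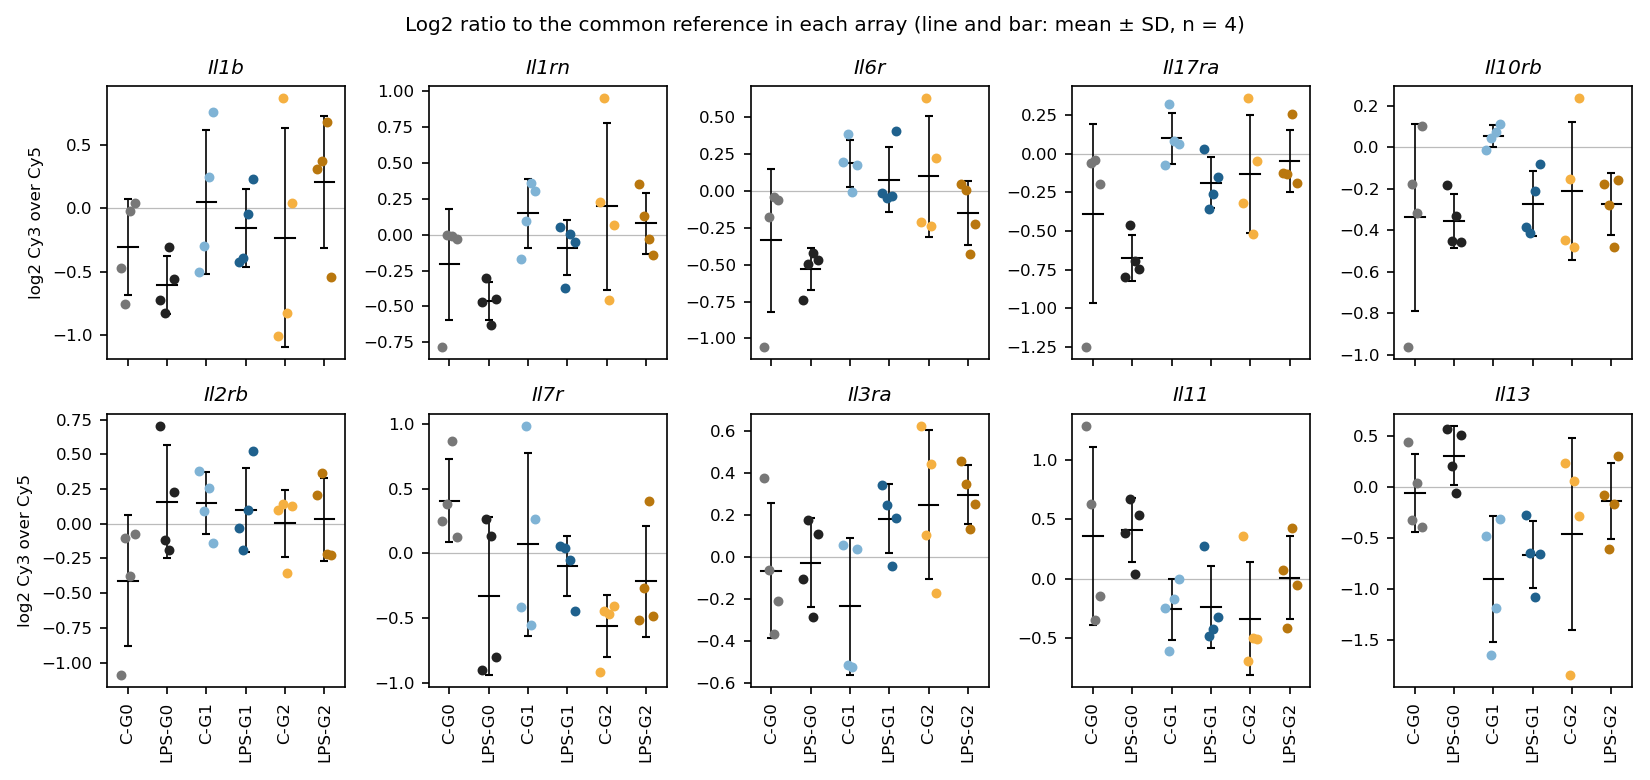
Log2 ratio of Cy3 over Cy5 in each array for the 10 genes with an unadjusted p under 0.05 in at least 1 of the 8 comparisons, by group, with the mean and SD (n = 4). All 4 LPS-G0 values of Il6r, Il17ra and Il1rn lie below the means of the other 5 groups, and in C-G0 replicate 1 (first grey point) Il1rn, Il6r, Il17ra, Il10rb and Il2rb are far below the other 3 arrays.

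The G2 diet in rats given LPS (LPS-G2 vs. LPS-G0) gave 0 of 20 called genes (0% of all probes) and 3 at the unadjusted p (5.29% of all probes): Il1b, its antagonist Il1rn and Il17ra, all higher in LPS-G2. Il1b, probed at chr3:116964465-116964524, read 0.31, 0.38, 0.68 and -0.54 in LPS-G2, against values between -0.83 and -0.30 in LPS-G0. In 3 of the 4 rats it lay above all LPS-G0 rats, and in the remaining one within their range. The difference was 0.81, or 1.76-fold (SE 0.343, 95% interval 0.10 to 1.52, adjusted p = 0.766, exact permutation p = 0.0571). Il1rn, probed at chr3:2613130-2613189, read 0.35, 0.13, -0.03 and -0.14 in LPS-G2 and -0.47, -0.30, -0.63 and -0.45 in LPS-G0, without overlap. The difference was 0.54, or 1.45-fold (SE 0.227, adjusted p = 0.766, exact permutation p = 0.0286). Il17ra read -0.12, -0.13, 0.26 and -0.19 in LPS-G2, above every LPS-G0 array. The difference was 0.63 (SE 0.221, adjusted p = 0.766, exact permutation p = 0.0286). Between LPS-G2 and LPS-G0, 3 of the 20 genes and 10.2% of all probes tested did not overlap. The decoy Il1r2 differed by 0.66 (95% interval -0.04 to 1.37). Within slides the Il1b difference ran from 0.63 to 1.09 and that of Il1rn from 0.36 to 0.76. Without C-G0 replicate 1, which is in neither group and enters by the fit over all 6 groups, 5 genes passed the unadjusted p. This comparison shares the LPS-G0 arrays with LPS-G1 vs. LPS-G0 and with LPS-G0 vs. C-G0, so a low reading in those 4 rats enters all of them.

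Neutrophil and monocyte markers were counted beside the IL-1 genes at the unadjusted p, which 5.29% of all probes passed, and none was called. Of 6 tested neutrophil markers 3 were higher in LPS-G2 than in LPS-G0, with a median of 0.62, and of 6 tested monocyte markers 2 were higher, with a median of 0.38. The neutrophil list ran from -0.57 to -0.13 in LPS-G0 and from -0.29 to 0.56 in LPS-G2, and the monocyte list from -0.47 to -0.17 and from -0.21 to 0.30. Of 11 neutrophil markers the granule genes Mpo, Elane, Mmp8, Mmp9 and Lcn2 were not testable. The part of these cells in the differences was not tested.

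The G2 diet in saline rats (C-G2 vs. C-G0) gave 0 called genes (0.028% of all probes) and 2 at the unadjusted p (13.3% of all probes), Il7r and Il11, both lower in C-G2. For Il7r the C-G2 arrays read -0.92, -0.45, -0.47 and -0.40, below all C-G0 arrays. Between C-G2 and C-G0, 1 of the 20 genes and 2.62% of all probes tested did not overlap. The difference was -0.97, or 1.95-fold lower (SE 0.305, 95% interval -1.60 to -0.33, adjusted p = 0.22, exact permutation p = 0.0286), the smallest unadjusted p of the 20 testable genes in the 8 comparisons (0.00438). The second Il7r probe gave -0.85 (SE 0.463), and within slides the first ran from -1.31 to -0.57. Il11 read 0.36, -0.70, -0.50 and -0.51 in C-G2 and 1.29, 0.63, -0.35 and -0.14 in C-G0, overlapping, with a difference of -0.70 (SE 0.294, adjusted p = 0.319). Without C-G0 replicate 1, the highest value, it was -0.39 (unadjusted p = 0.17). Within slides, with all arrays, the Il11 difference ran from -0.60 to -0.35. The count was 4 without C-G0 replicate 4 or C-G2 replicate 3, and 1 without C-G2 replicate 2. Of 8 tested T cell markers 1 was lower and none higher in C-G2, with a median of 0.03, and 4 of 7 cytotoxic T and NK cell markers were higher, with a median of 0.56. The list mean differed by 0.63 for the cytotoxic list and by 0.29 without C-G0 replicate 1, and by -0.05 and -0.24 for T cells. Their part in the Il7r difference was not tested.

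In the groups not yet given, these genes spread as widely. Il1b read -0.50, -0.30, 0.25 and 0.76 in C-G1, -0.42, -0.39, -0.05 and 0.23 in LPS-G1 and -1.01, 0.87, -0.83 and 0.04 in C-G2. The C-G2 rats thus held both the highest and the lowest Il1b value of the 24. Il1rn read -0.17, 0.10, 0.36 and 0.30 in C-G1, 0.05, -0.37, 0.01 and -0.05 in LPS-G1 and 0.23, 0.95, -0.46 and 0.07 in C-G2. Its highest value, like that of Il1b, was in C-G2 replicate 2. Il6r read -0.21, 0.63, -0.24 and 0.23 in C-G2 and 0.05, 0.00, -0.43 and -0.22 in LPS-G2. Il17ra read -0.32, 0.36, -0.52 and -0.05 in C-G2. The highest Il6r and Il17ra values were again in C-G2 replicate 2. Il10rb read -0.18, -0.45, -0.33 and -0.46 in LPS-G0, -0.38, -0.41, -0.21 and -0.08 in LPS-G1, -0.45, -0.15, -0.48 and 0.23 in C-G2 and -0.18, -0.28, -0.48 and -0.16 in LPS-G2. Il2rb read -0.03, -0.19, 0.10 and 0.52 in LPS-G1, 0.10, 0.14, -0.36 and 0.13 in C-G2 and 0.20, 0.37, -0.22 and -0.23 in LPS-G2. All 3 of these Il2rb groups straddled 0. Il7r read -0.41, 0.98, -0.56 and 0.27 in C-G1, 0.06, 0.04, -0.05 and -0.44 in LPS-G1 and -0.51, -0.27, 0.40 and -0.48 in LPS-G2. Il3ra read 0.38, -0.06, -0.36 and -0.21 in C-G0, -0.11, 0.18, -0.28 and 0.11 in LPS-G0, 0.62, 0.11, 0.44 and -0.17 in C-G2 and 0.46, 0.35, 0.13 and 0.25 in LPS-G2. Only in LPS-G2 were all 4 Il3ra values above 0. Il11 read 0.08, -0.42, 0.43 and -0.05 in LPS-G2. Il13 read 0.23, -1.84, 0.05 and -0.29 in C-G2, where replicate 2 was not above background, and -0.08, -0.61, -0.16 and 0.30 in LPS-G2, the one group with all 4 arrays above it.

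Il34, a ligand of the colony-stimulating factor 1 receptor and a gene named by the study, was too dim in Cy3 to test. Its probe lies at chr19:40662763-40662822, and it was well above background in Cy3 on 5 of 24 arrays: 1 of C-G0, 1 of C-G1, 2 of C-G2, 1 of LPS-G2 and none of LPS-G0 or LPS-G1. In the reference it was so on 19. The log2 ratio read -0.85, -0.78, -1.20 and -0.29 in LPS-G0 and -0.09, -0.12, 0.38 and 0.62 in LPS-G2, without overlap. In C-G0 it read -0.78, -1.72, -0.63 and -0.92, and in C-G2 1.09, -0.54, 1.06 and 0.59. In C-G1 it read 0.49, -0.49, -0.29 and -0.43, and in LPS-G1 -0.38, -0.19, -0.46 and -0.18. Fitted over all 30367 probes without a filter, the difference was 0.97 in LPS-G2 vs. LPS-G0 (SE 0.323, adjusted p = 0.953) and 1.56 in C-G2 vs. C-G0 (SE 0.323, unadjusted p = 0.000102, adjusted p = 0.341). The 2 channels were then taken apart. In quantile-normalized log2 signal, Cy3, the rat RNA, averaged 5.10 ± 0.50 in C-G0 and 5.17 ± 0.73 in C-G2 (SD, n = 4), while Cy5, the common reference, averaged 6.03 ± 0.60 and 4.57 ± 0.52. In LPS-G0 and LPS-G2 Cy3 averaged 4.56 ± 0.48 and 5.06 ± 0.81 and Cy5 5.34 ± 0.43 and 4.81 ± 0.65. With none of the LPS-G0 and 1 of the 4 LPS-G2 arrays above background in Cy3, no fold is given. For the 18 differences of testable genes given above at the unadjusted p, the Cy5 difference was at most 0.22 in size.

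Partners of interleukin signalling were counted as a list of 28 genes of receptors, Janus kinases, STAT factors, IL-1 receptor adaptors and suppressors, of which 20 were tested and 3 were dim on all arrays. None was called in any of the 8 comparisons. By the unadjusted p, 8 genes lay higher and 2 lower in C-G1 vs. C-G0, 4 were higher in LPS-G1 vs. LPS-G0, 2 were higher in LPS-G2 vs. LPS-G0, 2 were higher in C-G2 vs. C-G0 and 1 was lower in LPS-G0 vs. C-G0. These shares can be read against 27.9%, 23.7%, 5.29%, 13.3% and 11.3% of all probes. The mean of the partner list differed by 0.227 in C-G1 vs. C-G0, and by 0.095 without C-G0 replicate 1.

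Some of the testable genes varied together from rat to rat. Over the 24 arrays, 190 pairs were correlated, with a median r of 0.02. Of these pairs 25 passed an adjusted permutation p of 0.05 for both Pearson's r and Spearman's rho, 15 positive and 10 negative. The share that would pass among pairs of all probes was not computed. Of these 25, 24 had the same sign within each of the 3 slides. Il17ra and Il1rn had r = 0.823 and rho = 0.775 (adjusted permutation p = 0.000317 and 0.0019), r = 0.767 without the 2 arrays farthest from the Il17ra median (C-G0 replicate 1 and LPS-G0 replicate 1), and 0.836, 0.859 and 0.835 within the slides. Il17ra and Il6r had r = 0.813 and rho = 0.71, 0.663 without those 2 arrays, and 0.955, 0.91 and 0.341 within the slides. Il1rn and Il6r had r = 0.761 and rho = 0.702, and 0.592 without the 2 farthest. Il1b went with its antagonist Il1rn at r = 0.627 and rho = 0.582 (adjusted permutation p = 0.0079 and 0.0316), falling to 0.46 without the 2 farthest arrays, and to 0.292 on slide 1. With group means removed, the Il17ra and Il1rn correlation was 0.746.

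Il13 and Il11 ran against this set. Il11 and Il6r had r = -0.802 and rho = -0.703, and Il13 and Il6r r = -0.774 and rho = -0.789, with -0.686 and -0.679 after the 2 farthest arrays were left out. Il13 and Il4r, a chain of the receptor for IL-4 and IL-13, had r = 0.709 and rho = 0.637. Outside these sets, Il16 and Il27ra had r = 0.771 and rho = 0.745 (0.581 without the 2 farthest arrays), and Il18 and Il2rb r = 0.705 and rho = 0.573 (0.505). How particular such likeness is differed by gene. Of the 10707 other tested probes, Il1rn was matched more closely than by Il17ra by 4 only, so that Il17ra ranked 5, and for Il18 the Il2rb probe ranked 2. For Il6r, in contrast, 25.3% of all other probes had an r over 0.5, and Il17ra ranked 60. The same share was 25.6% for Il13, where Il4r ranked 1530, and 26.7% for Il16, where Il27ra ranked 610. It was 21.4% for Il17ra, 21.0% for Il11, 23.6% for Il10rb and 21.5% for Il27ra. All pairs share arrays, reference and normalization.

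**Figure D4:**
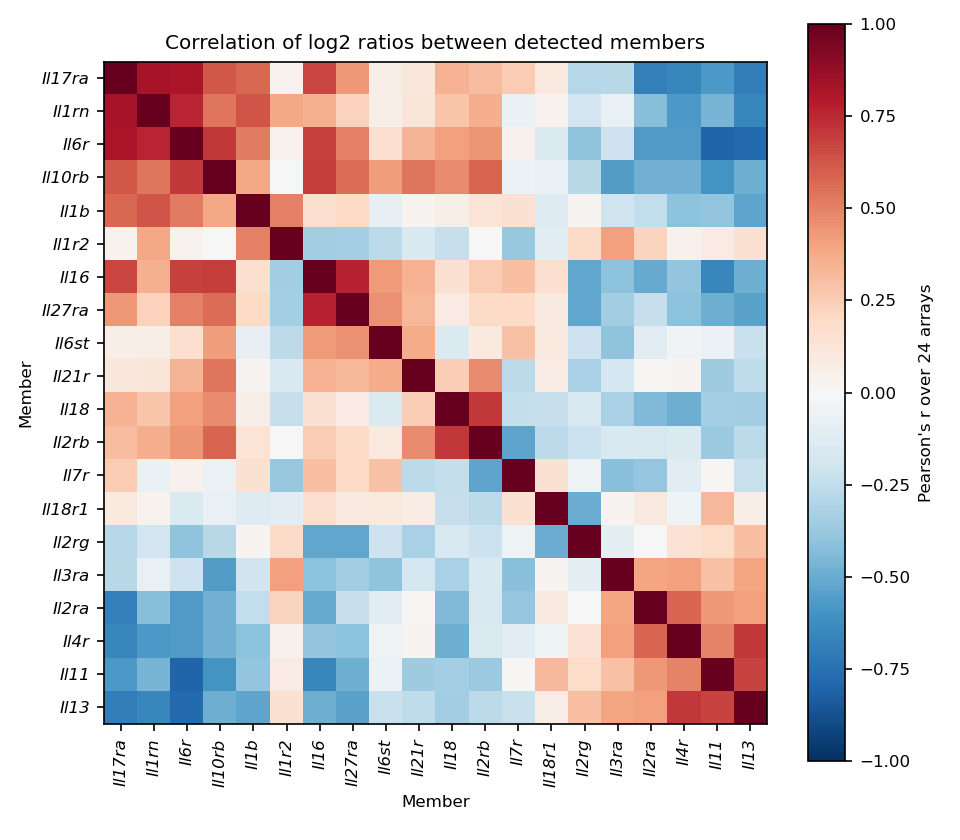
Pearson's r of the log2 ratios over 24 arrays for every pair of the 20 testable genes. Il17ra, Il1rn, Il6r and Il10rb form a positive block at the upper left, and Il2ra, Il4r, Il11 and Il13 at the lower right are negative to it (Il11 with Il6r, r = -0.802).

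Promoters are shown for Il1b, Il1rn, Il6r and Il7r, which are among the genes with an unadjusted p under 0.05 in at least 1 comparison above. Sequences of 300 bases around the gene start are from RefSeq (GRCr8), read 5′ to 3′ on the gene's strand. Capitals mark matches, on either strand, to the TATA box (TATAAA), NF-kappaB (its name alone is given), PU.1 (GAGGAA), C/EBP (TTGCNNAA) and STAT (TTCNNNGAA) letters. Of the 20 testable genes 16 had an entry, and the 4 promoters are those of Il1b (chr3:137036532-137036831, minus strand), Il1rn (chr3:27520072-27520371, plus strand), Il6r (chr2:177645160-177645459, minus strand) and Il7r (chr2:60204868-60205167, minus strand).
Il1b: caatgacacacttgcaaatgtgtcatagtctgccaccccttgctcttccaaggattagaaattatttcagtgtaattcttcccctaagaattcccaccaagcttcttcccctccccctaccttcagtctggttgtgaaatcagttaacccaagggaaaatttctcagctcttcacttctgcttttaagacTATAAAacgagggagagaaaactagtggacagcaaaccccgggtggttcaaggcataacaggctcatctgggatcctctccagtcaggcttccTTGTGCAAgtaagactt
Il1rn: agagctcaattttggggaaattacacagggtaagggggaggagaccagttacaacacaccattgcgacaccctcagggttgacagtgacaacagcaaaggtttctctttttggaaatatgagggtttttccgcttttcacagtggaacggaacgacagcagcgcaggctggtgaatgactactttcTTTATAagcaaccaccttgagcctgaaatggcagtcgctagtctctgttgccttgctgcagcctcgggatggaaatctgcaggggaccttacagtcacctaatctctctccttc
Il6r: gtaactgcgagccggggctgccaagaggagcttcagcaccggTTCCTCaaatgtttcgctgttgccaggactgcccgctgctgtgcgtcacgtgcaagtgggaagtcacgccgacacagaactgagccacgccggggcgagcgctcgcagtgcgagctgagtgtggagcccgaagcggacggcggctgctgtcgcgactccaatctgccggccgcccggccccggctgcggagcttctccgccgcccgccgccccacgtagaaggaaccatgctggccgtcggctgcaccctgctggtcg
Il7r: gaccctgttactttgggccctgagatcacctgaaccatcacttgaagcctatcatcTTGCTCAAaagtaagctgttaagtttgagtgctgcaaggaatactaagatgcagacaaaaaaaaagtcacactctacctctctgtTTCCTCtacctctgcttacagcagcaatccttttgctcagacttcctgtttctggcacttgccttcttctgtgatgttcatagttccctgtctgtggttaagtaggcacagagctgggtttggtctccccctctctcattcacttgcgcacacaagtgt

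Il1b held TATAAA 60 bases before the start and a C/EBP match after it. Il1rn held TATAAA on the other strand 64 bases before its start. Il6r held no TATA box in this window and a PU.1 match 208 bases before the start, and Il7r a PU.1 and a C/EBP match. Of all 33469 promoters of this length in the table, 14.2% held TATAAA, 19.3% the NF-kappaB letters, 27.6% GAGGAA, 10.6% the C/EBP letters and 8.87% the STAT letters. Among the 16 promoters of testable genes these were in 3, 3, 3, 4 and 2. The matches are a description of letters and of nothing bound there.

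Levels of single genes went with those of blood cell marker lists, which hold none of the interleukin genes. Of 180 relations between the 20 genes and 9 lists, 20 passed an adjusted permutation p of 0.05 for both r and rho. Of these, 15 were positive and 5 negative, and all 20 had the same sign within each slide. The share of all probes that would pass was not computed. Il2rb went with cytotoxic T and NK cell markers (r = 0.865, rho = 0.802, adjusted permutation p = 0.0009 and 0.0018), at 0.702 without the 2 arrays farthest from the Il2rb median and at 0.892 on slide 1 and 0.836 on slide 3. Il16, a chemoattractant for CD4 cells, went with T cell markers (r = 0.832, rho = 0.733), as did Il27ra (r = 0.677, rho = 0.622) and Il6st (r = 0.667, rho = 0.631). Without the 2 arrays farthest from each gene's median, r was 0.726 for Il16, 0.477 for Il27ra and 0.658 for Il6st. Il17ra went with monocyte markers (r = 0.764, rho = 0.637, and 0.543 without the 2 farthest arrays). Il1rn went with monocyte markers (r = 0.757, rho = 0.743) and with neutrophil markers (r = 0.746, rho = 0.69). Il1r2 went with neutrophil markers (r = 0.692, rho = 0.669). Without the 2 farthest arrays, Il1rn had 0.693 with monocyte and 0.675 with neutrophil markers, and Il1r2 had 0.684 with neutrophil markers. Il1b and neutrophil markers had r = 0.697 and rho = 0.529, where the adjusted permutation p of rho was 0.0612. Il13 went with erythroid markers (r = 0.754, rho = 0.75) and with the eosinophil list (r = 0.719, rho = 0.723), which rested on the single tested gene Prg2. Il13 was above background on 17 arrays and Prg2 on 16, so these relations rest partly on values without a firm level. Other positive relations were Il17ra with basophil and mast cell (r = 0.72) and neutrophil markers (r = 0.582), and Il6r with monocyte markers (r = 0.725). Il10rb with T cell markers (r = 0.65) and Il11 with Prg2 (r = 0.602) passed too. Without the 2 farthest arrays, Il17ra had 0.68 with basophil and mast cell and 0.589 with neutrophil markers. Il6r with monocyte markers then had 0.478, Il10rb with T cell markers 0.482 and Il11 with Prg2 0.664. The negative ones were Il16 (r = -0.674), Il17ra (-0.663) and Il6r (-0.631) with erythroid markers. Il13 (r = -0.628) and Il4r (-0.59) were negative with basophil and mast cell markers. Without the 2 farthest arrays the erythroid values were -0.59 for Il17ra and -0.537 for Il6r. For Il16, where these were C-G0 replicate 1 and C-G1 replicate 2, it was -0.366. The basophil and mast cell values were then -0.486 for Il13 and -0.504 for Il4r. The smallest p that 100000 permutations can give is 1e-05.

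**Figure D5:**
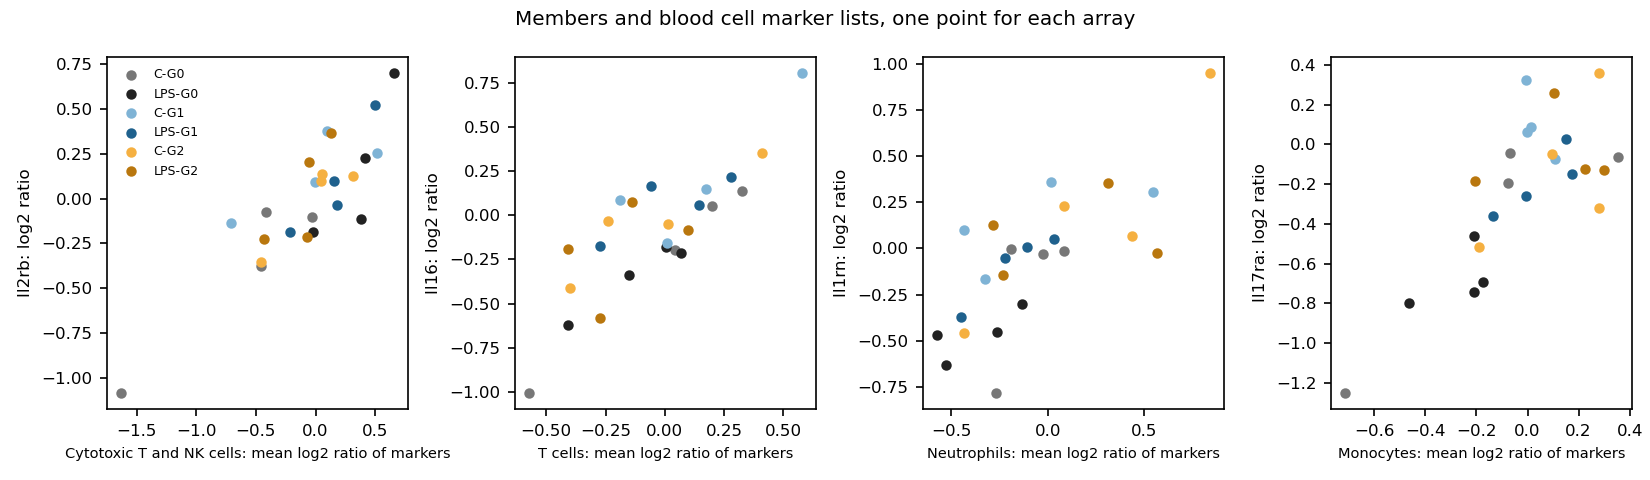
Log2 ratio of 4 genes against the mean log2 ratio of the tested markers of a blood cell type, one point for each of the 24 arrays, coloured by group. The r values are 0.865, 0.832, 0.746 and 0.764 from left to right, and the lowest point of every panel is C-G0 replicate 1.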

How the data were processed

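The authors deposited, per the file headers, the scanner output of Agilent Feature Extraction 10.10.1.1 (the submitters' processing notes name 10.7.3.1), with background-subtracted, Lowess-balanced intensity of each channel and the log10 ratio of Cy5 over Cy3 for each spot, which the software replaces where a channel is dim. The deposited log10 ratio was turned to log2 of Cy3 over Cy5, outlier-flagged and control spots were left out, and spots of a probe were averaged. For the 20 testable genes, 1 of 480 values was not the ratio of the processed intensity signals within 0.01 log2, and none was exactly 0. A probe was tested (10708 of 30367) when, throughout a group of 4 arrays, a share of 0.5 or more of its spots was well above background in Cy3. The 6 groups were fitted together in limma 3.58.1 (R 4.3.3) with eBayes, with Benjamini-Hochberg adjustment over all tested probes and a threshold of 0.05. Exact permutation tests were two-sided over 70 arrangements. Correlations used 100000 permutations (NumPy 2.4.6). Genes were named by the rule that per-array values are given for Il34 and for every tested gene with an unadjusted p under 0.05 in at least 1 of the 8 comparisons. The genes and lists were chosen with earlier results of these data known. The fit was tested on simulated data. Of the 78 array accessions, 70 were in the RefSeq table (GRCr8), all 70 with the same symbol. The series value table repeats the deposited ratios and was not used. The number of arrays limits the precision. Samples were grouped by their titles. Alternatives were another background correction, Cy3 alone, other filters, a variance trend, array weights, slide and replicate blocks, each array left out, a 16-array fit, probe means, the methods' analysis of variance, and a 2-fold limit.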

Additional observations from a re-analysis of the deposited data

Results flagged for a closer look

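Within the 120 sets of 4 arrays (20 genes in 6 groups), 11 (9.17%) had 1 array standing apart from the other 3 by more than the 95% limit of Dixon's test, which chance gives in about 5%. C-G0 replicate 1 stood apart for 3 of them: Il17ra read -1.25 against -0.20 in the nearest array, Il1rn -0.78 against -0.03 and Il6r -1.06 against -0.17. LPS-G1 replicate 2 stood apart for Il1r2 (-0.74, the nearest 0.02) and Il2rg (0.10, the nearest -0.13). LPS-G2 replicate 3 stood apart for Il17ra (0.26, the nearest -0.12) and Il21r (-1.56, the nearest 0.10). The others were Il18 in LPS-G0 replicate 2 (-0.89, the nearest 0.25), Il2rb in C-G2 replicate 3 (-0.36, the nearest 0.10), Il6r in LPS-G1 replicate 4 (0.40, the nearest -0.01) and Il7r in C-G2 replicate 1 (-0.92, the nearest -0.47).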

How the results depend on the processing

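The 18 differences given at the unadjusted p kept their direction in all 614 values under the alternatives that have a test, and 6 of these passed the adjusted threshold, but sizes moved. Leaving out an array of a group outside a comparison cannot change its difference, so the direction of many of these values was fixed in advance. The 18 were also picked by their p from these same arrays, so the tally is a description only. With normexp background correction Il13 was -0.15 in C-G1 vs. C-G0 and -0.32 in LPS-G1 vs. LPS-G0 (from -0.85 and -0.97), Il11 was -0.31 (from -0.65) and Il6r 0.32 (from 0.61) in the latter, and with array weights Il17ra was 0.18 in C-G1 vs. C-G0 (from 0.49). Within single slides 51 of 54 values had the same sign. The count of called genes stayed at 0 in 282 of 286 recomputations, leaving out each array included (0 to 0 in all 8 comparisons). With array weights it was 2 in LPS-G0 vs. C-G0 (Il2ra and Il17ra, with 917 probes of all genes called) and 4 in LPS-G1 vs. LPS-G0 (Il6r, Il13, Il17ra and Il11, with 2955 probes called). In LPS-G1 vs. LPS-G0 it was 1 (Il13) with the 16 arrays of 4 groups (adjusted p = 0.0289) and 1 (Il13, adjusted p = 0.0358) with the replicate number as a replicate block; the replicate block left it at 0 elsewhere. Same-numbered arrays, which mostly share a slide, had a mean correlation of deviations of 0.111 (from -0.306 to 0.537), so the numbers were not taken to pair them. The cause of these shifts was not tested. The count at the unadjusted p ranged over all alternatives from 0 to 5 in LPS-G0 vs. C-G0, 0 to 3 in LPS-G1 vs. C-G1, 0 to 1 in LPS-G2 vs. C-G2, 0 to 5 for LPS over the 3 diets, 0 to 7 in LPS-G1 vs. LPS-G0, 0 to 8 in LPS-G2 vs. LPS-G0, 0 to 10 in C-G1 vs. C-G0 and 0 to 7 in C-G2 vs. C-G0, the 0 often from the 2-fold limit, which no gene reached. The methods' analysis with Tukey's test gave a count of 1 for G1 against G0 in rats given LPS and 0 for G2 against G0 and for LPS on the control diet, and 0 in each after Benjamini-Hochberg adjustment. The median of all probes in LPS-G1 vs. LPS-G0 was 0.07 on the ratio and 0.13 in Cy3 alone. Signal over background limits the result to 20 of the 78 genes.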
